A study of Macaca fascicularis with 9 samples.

Results

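Cluster 13 was a small group of nuclei within the oligodendrocyte precursor cells (OPCs) of cynomolgus monkey thalamus. Its members were the nuclei that carry both the cell type name OPCs and the cluster number 13 in the authors' deposited table of nuclei. Both labels were made by the authors from expression, and no further expression value was used to choose members. There were 366 such nuclei among 6233 OPCs and 79994 nuclei in all. The other OPCs fell in cluster 4, with 5580 nuclei, and cluster 14, with 287. Oligodendrocytes, which held 61578 nuclei in 7 clusters, were the mature comparison.

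All 9 monkeys were female and belonged to 3 groups of 3 animals, with 1 library per animal. The ASO group received an antisense oligonucleotide against MALAT1 into the spinal fluid, given as 1 dose of 4 mg. The OTV group received 4 biweekly doses of OTV:MALAT1 at 30 mpk into a vein, and the saline group received 4 biweekly doses of saline by the same route. None of these animals received saline into the spinal fluid or OTV without the oligonucleotide, so in the ASO comparison the agent, its route and the number of doses cannot be told apart. The brains were collected 2 weeks after dosing ended. In OTV:MALAT1 the oligonucleotide is coupled to a transferrin receptor binding protein, and the replicates were separate animals.

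OPCs are the dividing glial progenitors of the adult brain. They carry the growth factor receptor PDGFRA and the proteoglycan CSPG4 on their surface and receive synaptic input from neurons. When an OPC leaves the progenitor state it loses these receptors, passes through a short premyelinating stage marked by GPR17, BCAS1, ENPP6, TCF7L2 and high FYN, and then turns on the myelin genes under the transcription factor MYRF. Few cells are at this stage at any time in the adult brain.

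Each animal gave between 25 and 61 cluster 13 nuclei. Their unique molecular identifiers (UMIs, the counted RNA molecules) summed to between 241456 and 979930 per animal. A median cluster 13 nucleus had 10978.5 UMIs, against 7475.5 in cluster 4 and 6016 in oligodendrocytes. Animal medians in cluster 13 ran from 7767.5 to 14671.5 in saline, 11896 to 16111 in ASO animals and 5180 to 10323 after OTV. The deposited doublet score was also higher, with a median of 0.0168 in cluster 13, 0.000851 in cluster 4 and 0.000881 in oligodendrocytes. Of the 366 nuclei, 7 had a barcode sequence that also occurs in another library. The level of a regional gene also differed among animals. LHX2, a forebrain transcription factor gene chosen after its values were seen, stood in cluster 6 astrocytes at 33.0, 2.27 and 87.6 CPM (counts scaled to a library of 1000000 UMIs) in saline replicates 1 to 3, 0.289, 3.29 and 95.4 in ASO animals and 0.276, 0 and 0.335 after OTV. In cluster 13 itself LHX2 had at most 1 UMI in any animal. Animals with little LHX2 included only 1 saline animal, replicate 2, so neither treatment could be compared with saline within them. Whether the region dissected differed between these animals, all labelled thalamus, was not tested.

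Cluster 13 kept part of the OPC programme with little of the progenitor receptor PDGFRA and the proteoglycan CSPG4. A list of OPC identity genes, of which 18 of 20 were measured, took up 2.70% ± 0.678 of the UMIs in cluster 13, 3.87% ± 0.257 in cluster 4 and 0.0783% ± 0.0293 in oligodendrocytes (SD, n = 9 animals). Within each animal the summed level on the log2(CPM + 1) scale was lower in cluster 13 than in cluster 4 by −0.56 ± 0.36 (SD), in 9 of 9 animals. Clusters were drawn from these same genes, so this and every other difference between clusters is a description and carries no test. Of the 18 members, 11 were lower than in cluster 4 in all 9 animals and 2 were higher in all 9. By any amount, 36% of the 4169 features with a mean of 50 CPM or more in either cluster were lower in all 9 and 15.3% higher. Of all 25592 features with a UMI in either cluster, most of them too sparse to order, 12.4% and 3.29% were.

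Of the pair of genes given as markers of these cells, PTPRZ1, a receptor phosphatase of OPCs and astrocytes, stood at 1115 ± 438 CPM in cluster 13 with a lowest, median and highest animal of 417, 1113 and 1884. In cluster 4 it stood at 4172 ± 873 and in oligodendrocytes at 37.1 ± 17.8 CPM. Every animal had less PTPRZ1 in cluster 13 than in cluster 4 and more than in oligodendrocytes. TNR, the matrix protein tenascin-R, was at 1421 ± 271 CPM in cluster 13, 1594 ± 182 in cluster 4 and 5.17 ± 3.56 in oligodendrocytes. The TNR levels of the OPC clusters overlapped, with 6 animals lower and 3 higher in cluster 13. PDGFRA differed further between the clusters than PTPRZ1, with 22.7 ± 16.8 CPM in cluster 13 (3.34 to 49.7) against 308 ± 38.4 in cluster 4 (263 to 377), a 13.6-fold difference of means without overlap. CSPG4 had 5.40 ± 5.75 against 59.2 ± 37.1 CPM. The adhesion and synaptic genes PCDH15 (1837 against 4067 CPM) and NXPH1 (313 against 1525) were also lower in all 9 animals. The 2 higher members were transcription factors of the lineage, SOX10 at 296 ± 39.6 against 147 ± 19.0 CPM and SOX6 at 4851 ± 1243 against 2539 ± 422.

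Genes of the premyelinating stage peaked in cluster 13. A list of committed precursor genes, 14 of 15 measured, took up 2.27% ± 0.242 of its UMIs, 0.295% ± 0.0200 in cluster 4 and 0.303% ± 0.0181 in oligodendrocytes (SD, n = 9). The summed level was 7.66-fold that of cluster 4 and 7.44-fold that of oligodendrocytes, and the lowest cluster 13 animal, at 1.80%, lay above every animal of both. BCAS1, a marker of early myelinating cells, was at 8454 ± 1722 CPM, 698 ± 92.5 and 787 ± 86.9 in cluster 13, cluster 4 and oligodendrocytes. ENPP6, a choline phosphodiesterase of newly forming oligodendrocytes, was at 1164 ± 376, 25.6 ± 3.87 and 97.4 ± 24.1 CPM. GPR17, the G protein-coupled receptor of the premyelinating stage, was at 279 ± 131, 41.2 ± 15.99 and 4.02 ± 2.24 CPM. These and TNS3, TCF7L2, FYN and LIMS2 made 7 list members that lay 2-fold or more above both other populations in all 9 animals. Such genes made up 2.16% of the 4676 features with a mean of 50 CPM or more in any of the 3 populations, 101 in all. A member that ran the other way was CNKSR3, with 34.6 CPM in cluster 13, 100.2 in cluster 4 and 238 in oligodendrocytes.

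**Figure D1:**
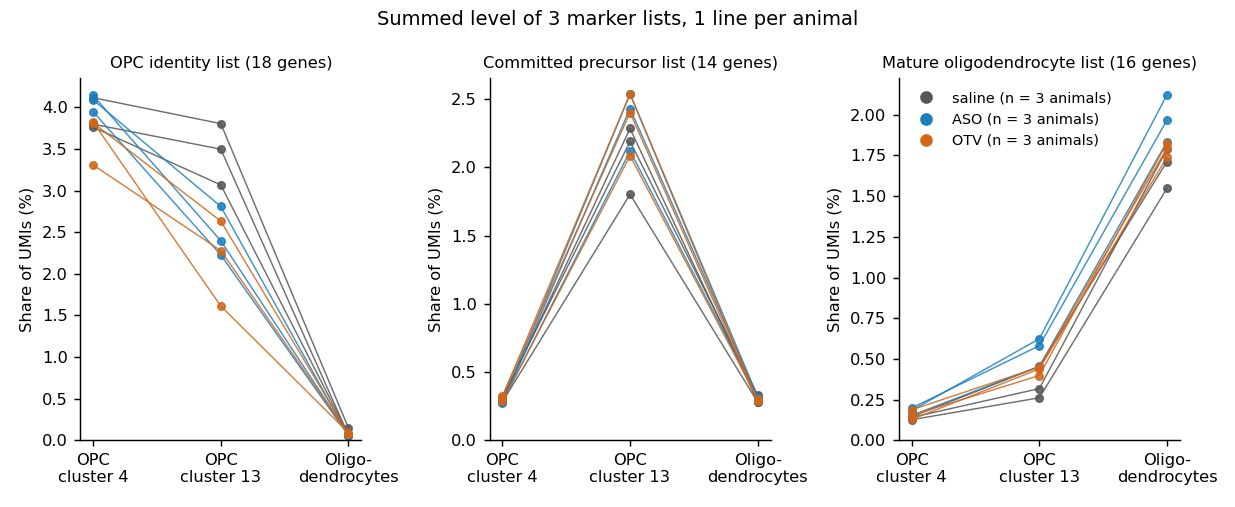
The share of UMIs (%) taken by 3 marker lists is plotted for OPC cluster 4, OPC cluster 13 and oligodendrocytes, with 1 line per animal coloured by group. The OPC identity list falls from left to right, the committed precursor list peaks in cluster 13 in all 9 animals, and the mature oligodendrocyte list reaches at most 0.624% there.

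Myelin genes had begun to appear but most were far from their mature level. The mature oligodendrocyte list, 16 of 18 measured, took up 0.442% ± 0.113 of the UMIs in cluster 13, 0.158% ± 0.0262 in cluster 4 and 1.82% ± 0.161 in oligodendrocytes (SD, n = 9). It was 2.75-fold above cluster 4 and 4.22-fold below oligodendrocytes. MYRF, the transcription factor that switches on myelin genes, stood at 401 ± 228 CPM in cluster 13, 21.5 ± 9.26 in cluster 4 and 340 ± 78.1 in oligodendrocytes. CLDN11, a tight junction protein of the myelin sheath, was at 391 ± 135 CPM against 394 ± 139 in oligodendrocytes, and the order of these 2 populations varied between animals for both genes. MAG and MOG, which encode myelin proteins, were intermediate: MAG had 254, 30.2 and 558 CPM and MOG 248.5, 33.0 and 847 in cluster 13, cluster 4 and oligodendrocytes. Of its 16 members, 9 were higher than in cluster 4 in all 9 animals and 1 was lower in all 9. All 10 were among the 11 with a mean of 50 CPM or more, where 15.3% of all features were higher. Members lower than in cluster 4 in most animals, named after their values were seen, included OPALIN, ERMN and HAPLN2, which are expressed in mature oligodendrocytes. OPALIN had 34.8 ± 36.4 CPM, 24.7 ± 5.37 in cluster 4 and 583 ± 212 in oligodendrocytes, ERMN 20.2 ± 12.3, 25.8 ± 11.5 and 331 ± 109, and HAPLN2 35.7 ± 36.7, 59.5 ± 38.8 and 640 ± 320. HAPLN2 was lower than in cluster 4 in all 9 animals.

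**Figure D2:**
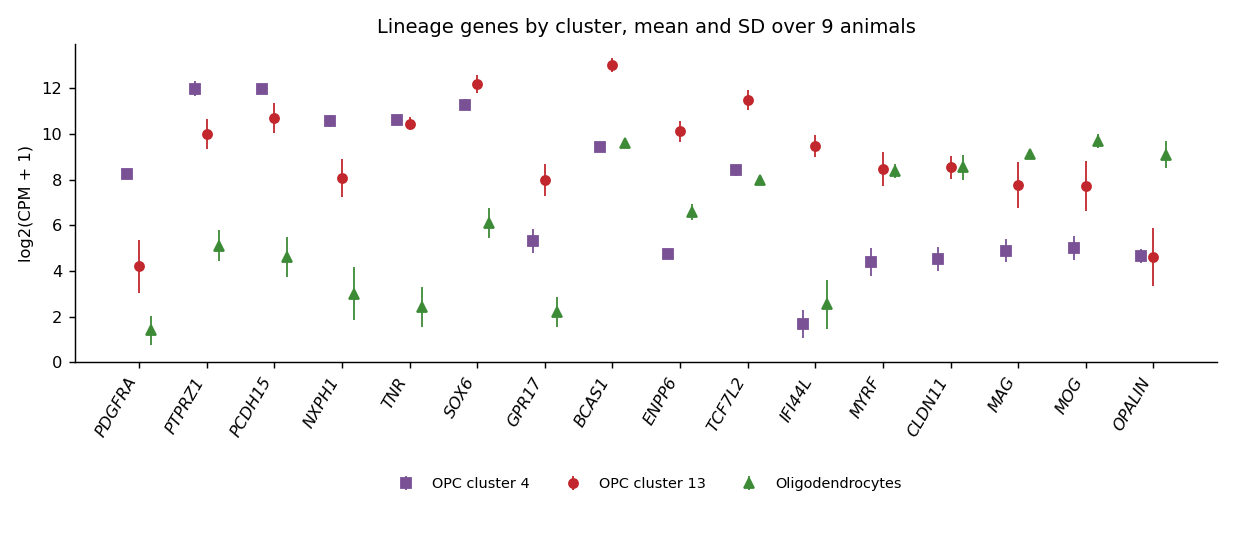
Mean log2(CPM + 1) with SD over 9 animals is shown for 16 lineage genes in OPC cluster 4, OPC cluster 13 and oligodendrocytes. PDGFRA to NXPH1 lie below their cluster 4 level in cluster 13, GPR17 to IFI44L lie above both populations, and OPALIN stays near its cluster 4 level.

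Beyond these lists, 215 of 4169 features (5.16%) were 2-fold or more higher in cluster 13 than in cluster 4 in all 9 animals, and 395 (9.47%) were lower by as much. IFI44L, named as an interferon-response gene, had the largest upward difference by the rule used here, with 751 ± 255 CPM against 2.46 ± 1.43 in cluster 4 and 6.73 ± 7.17 in oligodendrocytes. BMPER, a secreted regulator of bone morphogenetic protein signalling, was at 2958 ± 694 CPM, 131 ± 62.2 and 4.71 ± 4.17 in the same order. The potassium channel gene KCNB2 (1224 against 34.2 CPM in cluster 4), the lens filament gene BFSP2 (220.2 against 4.19), OLFML2A (254 against 5.88), KLHL29 (346 against 8.46) and the focal adhesion gene TNS1 (692 against 25.01) were likewise above both populations. CDK18, SRCIN1 and GAS7 were high in oligodendrocytes too, with 291, 535 and 678 CPM in cluster 13, 163, 508 and 792 in oligodendrocytes and 3.96, 12.8 and 23.6 in cluster 4. GPD1, ADAM33, CDH7, FGD3 and ENPP6 completed the 15 largest upward differences. A feature with an identifier only, ENSMFAG00000000050, was chosen after its values were seen: it made up 34656 ± 9955 CPM in cluster 13, 502 ± 87.0 in cluster 4 and 326 ± 44.5 in oligodendrocytes.

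The genes lowest against cluster 4 included SPRY4, ETV1 and KCNIP1. SPRY4, an inhibitor of receptor tyrosine kinase signalling, had no UMI in cluster 13 and 62.1 ± 15.0 CPM in cluster 4. Against a floor of 3 counts over the whole of cluster 13, cluster 4 was at least 90.3-fold higher. ETV1, an ETS family transcription factor, had 9.30 ± 4.64 against 301.5 ± 71.0 CPM, and the potassium channel partner KCNIP1 had 20.2 ± 13.03 against 716 ± 315. SEZ6L, EHD4, ATP13A4, TAFA1, ADAM19, MASP1 and ELAVL4 made up the rest of the 10 largest downward differences.

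The pathway lists differed from cluster 4 in both directions. Cholesterol synthesis genes, which supply myelin membrane, summed to 930 ± 153 CPM in cluster 13, 330 ± 62.4 in cluster 4 and 577 ± 49.6 in oligodendrocytes, and 12 of 17 measured members were above cluster 4 in all 9 animals. That holds for each of the 7 members with a mean of 50 CPM or more, against 15.3% of all such features. HMGCS1 (108 CPM against 21.9 and 20.0) and FDFT1 (115 against 18.5 and 24.0) were 2-fold or more above both populations in each animal. Notch and Wnt genes summed to 320 ± 74.3 CPM against 823 ± 64.3 in cluster 4. Of 16 measured members, 10 were lower in all 9 animals, among them the receptor NOTCH1 (23.1 against 90.7 CPM) and the ligand DLL1 (5.96 against 32.6), and HES1 and HES5 had no UMI in cluster 13 and means of 1.01 and 0.137 CPM in cluster 4. Only 5 members had a mean of 50 CPM or more, and 3 of them were lower in all 9 animals, against 36% of all such features. Cell cycle genes were also lower, at 90.8 ± 11.97 against 200 ± 24.6 CPM. In cluster 14, which is not covered further, the mean over the 6 animals with 10 or more nuclei was 741 ± 1479 CPM.

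Receptor genes for glutamate and GABA differed from cluster 4 in both directions. The 20 genes summed to 12228 ± 1206 CPM in cluster 13 and 14843 ± 1492 in cluster 4. GRIA2, GRID1, GRIK2 and GRIK4 were higher in all 9 animals, while 9 others were lower in all 9. Among the 15 with a mean of 50 CPM or more, 4 were higher and 7 lower in all 9, against 15.3% and 36% of all such features. GRIN2B, an NMDA receptor subunit, had 53.4 ± 42.0 against 349 ± 39.1 CPM, and the metabotropic receptor gene GRM7 had 54.8 ± 29.9 against 425 ± 57.8. GRID1 stood at 1964 ± 341 against 698 ± 99.5 CPM. Among 20 matrix and adhesion genes, 2 were higher and 9 lower in all 9 animals, with a sum of 9296 ± 1168 against 12094 ± 564 CPM. Of the 16 at 50 CPM or more, 2 and 7 were, shares near those of all features. The interferon response list summed to 1000 ± 259 CPM against 226 ± 87.3, most of it IFI44L, and 3 of its 15 measured members (IFI44L, MX2 and STAT2) were higher in all 9 animals. Of the 3 members at 50 CPM or more, 2 were, against 15.3% of all such features.

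Marker genes of other cell types were lower than in cluster 4 or low in both clusters. Astrocyte genes summed to 161 ± 61.8 CPM in cluster 13 (64.4 to 286) against 1011 ± 216 in cluster 4, and neuron genes to 783 ± 173 against 1112 ± 184. Myeloid genes were at 27.5 ± 7.44 against 75.1 ± 25.5 CPM with AIF1 at 0, and ependymal genes at 62.7 against 143 with PIFO at 0. Endothelial genes (41.5 ± 13.8 against 24.4 ± 3.02 CPM, CDH5 at 0), mural and fibroblast genes (38.2 against 37.4, COL1A1, COL3A1 and LUM at 0) and lymphocyte genes (14.2 against 18.2, THEMIS and IL7R at 0) were all low. The endothelial order turned to −0.56 on the log2 scale when nuclei were thinned to 1000 UMIs each. Leaving out the 37 nuclei with the highest doublet scores left the difference from cluster 4 at −0.53 for the OPC list, 2.96 for the committed precursor list and 1.44 for the mature list.

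Nuclei within cluster 13 were not alike. The OPC identity list took up a median of 2.50% of a nucleus's UMIs, with a lowest nucleus of 0.0597% and a highest of 7.35%, while the committed precursor list ran from 0.410% to 3.61% around a median of 2.30%. To see what went with this spread, the nuclei of each animal were parted at that animal's own median of the OPC list share, which gave 180 nuclei above and 186 at or below it. TCF7L2, a transcription factor needed for oligodendrocyte maturation, averaged 1759 CPM above the median and 4090 below it, and ENPP6 837 and 1451, each higher below the median in 9 of 9 animals. The myelin genes MAG (97.2 and 392 CPM), MOG (158 and 323) and CLDN11 (214 and 543) were also higher below the median in 9 of 9 animals. So were 7 of the 16 mature list members in all, each of them among the 10 with a mean of 50 CPM or more in cluster 13, against 7.48% of the 3276 features at that level. Other members were not: CTNNA3 had 740 and 747 CPM and was higher below the median in 3 of 9 animals, OPALIN in 4, and HAPLN2, ASPA and ENPP2 in 5 each. The lineage factor NKX2-2 (395 and 208 CPM) and the secreted factor BMP4 (30.8 and 8.45) ran the other way in 9 of 9, and GPR17 (348 and 218) in 8 of 9. TNS3 (3973 and 3797 CPM) and FYN (4076 and 4046) showed no common direction, and BCAS1 was lower below the median in 7 of 9. MALAT1 itself had 33747 CPM above the median and 50781 below it, higher below in 9 of 9. The parting used part of the same counts, so these values describe the spread and were not tested.

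The balance along this spread differed between groups of animals. Animal medians of the OPC list share were 3.57%, 3.42% and 3.83% in saline, 1.99%, 2.70% and 2.46% in ASO animals and 2.64%, 1.46% and 1.94% after OTV. All 3 saline medians lay above all 6 treated ones. Medians of the mature list were 0.332%, 0.315% and 0.258% in saline, 0.445%, 0.594% and 0.514% in ASO animals and 0.400%, 0.394% and 0.413% after OTV, with all saline medians below all treated ones. As a share of summed UMIs the mature list in cluster 13 took up 0.318%, 0.454% and 0.262% in saline. It took up 0.455%, 0.624% and 0.582% in ASO animals and 0.399%, 0.439% and 0.450% after OTV, so that the OTV animals overlapped saline. On that measure the OPC list in cluster 13 was at least 3.07% in saline and at most 2.81% in treated animals. In cluster 4 the mature list took up 0.141%, 0.145% and 0.127% of summed UMIs in saline, 0.153%, 0.184% and 0.199% in ASO animals and 0.155%, 0.129% and 0.188% after OTV, so that the ASO animals lay above saline there as well. In oligodendrocytes it took up 1.79%, 1.71% and 1.55% in saline and 1.83%, 2.12% and 1.97% in ASO animals, again without overlap, while the OTV animals, at 1.83%, 1.74% and 1.80%, overlapped saline. In cluster 4 the OPC list did not separate either treated group from saline, at 3.80%, 3.76% and 4.12% of summed UMIs in saline, 3.95%, 4.09% and 4.14% in ASO animals and 3.81%, 3.82% and 3.31% after OTV, where the ASO animals lay above the OTV animals. These shares were examined after earlier results were known and were not tested as a score. Depth and the astrocyte LHX2 level also differed between animals, and their part in this was not tested.

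**Figure D3:**
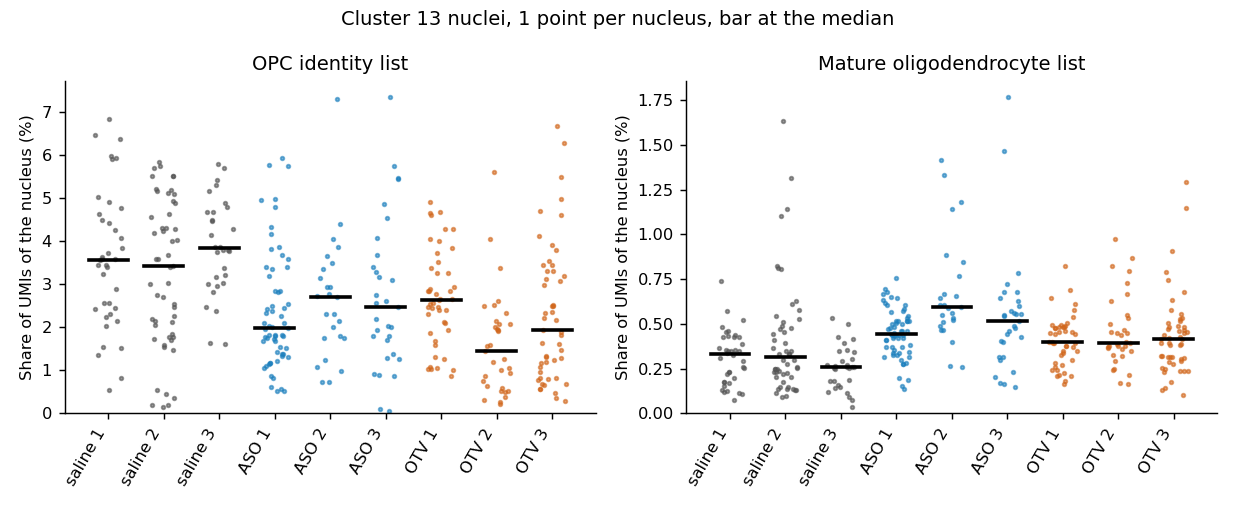
Each point is a cluster 13 nucleus and each bar an animal's median. The y axes give the share of the nucleus's UMIs (%) in the OPC identity list (left) and the mature oligodendrocyte list (right), and the 3 saline bars lie above the treated ones on the left and below them on the right.

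Cluster 13 made up 4.88%, 5.57% and 5.08% of the OPCs in saline, 6.62%, 5.09% and 3.43% in ASO animals and 6.13%, 9.79% and 9.39% after OTV. The exact binomial 95% intervals, which cover counting error only, reached from 3.48% to 6.64% in saline replicate 1 and from 6.84% to 13.5% in OTV replicate 2. In this share the OTV animals overlapped the ASO animals and not the saline animals. As a share of all nuclei they overlapped both, at 0.462% to 0.866% against 0.350%, 0.453% and 1.01% in saline and 0.210% to 0.509% in ASO animals. The overlap with saline came from saline replicate 3 alone, which had 2956 nuclei in all. There were 6.21 to 11.9 cluster 13 nuclei per 1000 oligodendrocytes after OTV, and 4.41, 5.90 and 27.9 in saline. The overlap again came from saline replicate 3 alone, which had 1074 oligodendrocytes. Since genes that shape the clusters differed between groups, these shares are given without a test.

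MALAT1, the nuclear noncoding RNA that both agents target, was not measurably lower in cluster 13 after either treatment. It took up 4.34%, 6.02% and 2.92% of UMIs in saline, 4.25%, 4.30% and 5.63% in ASO animals and 3.37%, 3.81% and 4.06% after OTV. The group means were 4.43% ± 1.55, 4.73% ± 0.783 and 3.74% ± 0.347 (SD, n = 3 each), and both treated groups overlapped the saline animals. The two-sided exact permutation p over the 3 groups was 0.479, where the smallest of 280 partitions allows 0.00357. In edgeR's quasi-likelihood fit, with p-values adjusted by Benjamini-Hochberg, MALAT1 changed on the log2 scale by 0.12 (SE 0.24, adjusted p = 0.888) after the ASO and by −0.17 (SE 0.24, adjusted p = 0.712) after OTV. Cluster 4 had 4.04% ± 0.734, 3.60% ± 0.175 and 2.81% ± 0.213, with an OTV change of −0.48 (SE 0.14, edgeR adjusted p = 0.0297). Oligodendrocytes had 6.59% ± 0.245, 4.89% ± 0.761 and 3.48% ± 0.462, so that the OTV mean was 52.8% of saline there and 84.6% in cluster 13. Without saline replicate 2 the OTV change in cluster 13 turned to 0.086 on the log2 scale (edgeR adjusted p = 0.871). The difference between the OTV changes of clusters 13 and 4 was 0.37 on the log2 scale (edgeR adjusted p = 0.672), which does not show that the clusters responded alike or differently. With oligodendrocytes in place of cluster 4 the difference was not called either. The lowest edgeR adjusted p for it in any setting was 0.270.

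Because MALAT1 was higher in nuclei with a low OPC list share, it was also summed on each side of the median over all 366 nuclei. Above it, MALAT1 took up 4.00%, 4.07% and 2.84% of UMIs in saline, 4.03%, 3.71% and 4.08% in ASO animals and 2.85%, 2.26% and 2.58% after OTV. At or below it the values were 5.02%, 8.41% and 3.38%, then 4.33%, 4.99% and 6.60%, then 3.97%, 4.12% and 4.88%. The 3.38% of saline replicate 3 rests on 4 nuclei, and the 2.26% of OTV replicate 2 above the median on 6. The share of nuclei above the median was 71.1%, 61.5% and 86.7% in saline and between 18.2% and 55.6% in treated animals. TFRC, the transferrin receptor bound by the OTV protein, averaged 27.2 ± 8.36 CPM in saline, 22.1 ± 6.36 in ASO animals and 13.2 ± 3.03 after OTV, and no contrast passed the test (edgeR adjusted p = 0.821 for ASO and 0.219 for OTV against saline).

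**Figure D4:**
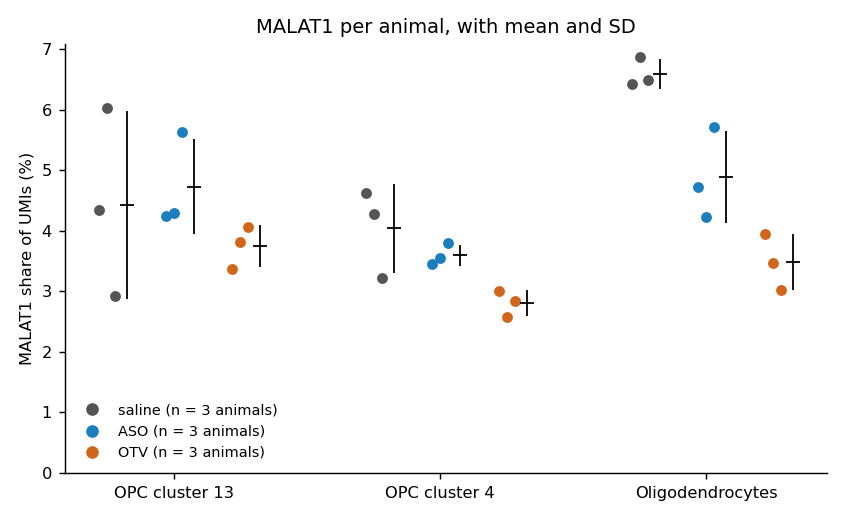
The MALAT1 share of UMIs (%) is plotted per animal in OPC cluster 13, OPC cluster 4 and oligodendrocytes by treatment group, with the mean and SD beside each set of points. Both treated groups overlap saline in cluster 13, where the OTV mean is 84.6% of saline, and the means fall from saline to ASO to OTV in oligodendrocytes.

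After the ASO, 225 of 5907 tested genes (3.81%) passed the edgeR test at an adjusted p under 0.05 in cluster 13, 94 higher (1.59%) and 131 lower (2.22%). RAPGEF2, an activator of Rap GTPases, rose from 662, 448 and 460 CPM in saline to 1922, 1377 and 1656 in ASO animals, by 1.67 on the log2 scale (SE 0.23, edgeR adjusted p = 0.00237), and stood at 501, 610 and 492 in OTV animals. All 3 ASO animals were far above the other 6. The fibrillar collagen gene COL11A2 rose by 2.11 (219 ± 21.8 against 48.3 ± 17.1 CPM, adjusted p = 0.00973), GOLIM4, a Golgi membrane protein gene, by 1.36 (479 against 186 CPM) and THSD1 by 3.78 (76.5 against 4.89 CPM). AMPD3, an AMP deaminase gene, had 73 UMIs in ASO and 3 in saline animals, a ratio of 21.1 per total with a counting interval of 6.93 to 105, and its call was lost without ASO replicate 1 (edgeR adjusted p = 0.137).

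MTSS1, which encodes an actin and membrane bending protein, stood at 363, 265 and 414 CPM in saline, 35.7, 36.0 and 88.4 in ASO animals and 126, 127 and 205 after OTV. It fell by 2.73 (SE 0.35, edgeR adjusted p = 0.00237) after the ASO and by 1.12 (adjusted p = 0.0374) after OTV, and no animal of either treated group reached the saline range. CTNNA2, the neural alpha-catenin, had 468, 463 and 352 CPM in saline and 93.9, 170 and 120 in ASO animals, a fall of 1.75 (SE 0.24, adjusted p = 0.00237). The bicarbonate transporter gene SLC4A10 fell by 1.64 (83.3 against 263 CPM), the phosphatase gene PTPRT by 2.18 (32.2 against 145; 0.46, edgeR adjusted p = 0.956, in nuclei at or below the median OPC list share) and the acid-sensing channel gene ASIC2 by 1.34 (129 against 328).

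The ASO count depended on single animals. Leaving out saline replicate 1, 2 or 3 gave 49, 139 or 83 genes, and leaving out ASO replicate 1, 2 or 3 gave 47, 107 or 149. With the level of LHX2 in each animal's astrocytes as a term in the fit, 110 genes were called. Of the 19 named genes called in this contrast, list members included, 9 kept their call whichever animal was left out. In cluster 4 the same comparison called 38 of 14617 genes (0.260%), and 0 of the 225 were called there in the same direction by edgeR. At an unadjusted p under 0.05, 57 of the 219 that were tested in cluster 4 changed there in the same direction and 3 in the opposite one. Of all 14617 genes tested there, 1387 passed that unadjusted threshold in either direction.

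After OTV, 675 genes (11.4%) passed, 351 higher (5.94%) and 324 lower (5.49%). Both comparisons use the same saline animals. COL11A2 rose by 3.41 (SE 0.36, edgeR adjusted p = 0.000141), from 54.5, 61.5 and 29.0 CPM to 270, 600 and 697. INPPL1, an inositol phosphatase gene, rose by 1.70 to 260, 260 and 284 CPM from 80.7, 93.5 and 82.8 in saline (adjusted p = 0.000148), while ASO animals had 87.8, 106 and 96.2. MYRF rose by 1.74 (SE 0.22, adjusted p = 0.000326), from 202, 231 and 203 to 575, 874 and 574 CPM, with ASO animals at 297, 335 and 317 between the groups. The junctional membrane gene JPH3 rose by 2.21 (134 against 30.8 CPM), and the mitochondrially encoded COX3 by 3.11 (268 ± 104 against 29.3 ± 18.4).

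ACADS, an enzyme of short-chain fatty acid oxidation, fell by 3.09 (SE 0.32, edgeR adjusted p = 9.89e-05) after OTV, to 62.1, 20.0 and 23.9 CPM from 357, 351 and 311. It fell by 2.58 in cluster 4 as well (adjusted p = 1.75e-05). The vesicle transport gene GOLT1B fell by 2.34 (27.6 against 143 CPM), the biotinidase gene BTD by 2.78 (55.0 against 419), CGGBP1 by 2.41 (19.2 against 111) and NKIRAS1 by 3.13 (25.3 against 232). Of the 675 genes, 464 (68.7%) were called in the same direction in cluster 4, where 2953 of 14617 genes (20.2%) were called, so that they formed 15.7% of the cluster 4 calls. The count fell to 344, 399 and 396 without saline replicate 1, OTV replicate 2 and OTV replicate 3. With the astrocyte LHX2 level as a term in the fit it was 148, and the COX3 call was lost (2.68, edgeR adjusted p = 0.0725).

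OTV and ASO animals, which differ in agent, route and number of doses, differed in 609 genes (10.3%), 297 higher (5.03%) and 312 lower (5.28%) in OTV. GRIK3, a kainate receptor gene, was called lower after the ASO and higher after OTV. It had 353, 358 and 302 CPM in saline, 168, 185 and 174 in ASO animals and 667, 624 and 598 after OTV. OTV exceeded ASO by 1.89 (SE 0.19, edgeR adjusted p = 3.94e-05), and the 3 groups did not overlap. Against saline, the ASO call was lost without any of 4 single animals (edgeR adjusted p up to 0.118) and when counts were thinned to equal totals, and the OTV call with the LHX2 term (a change of 0.93, 0.0810). INPPL1 was higher in OTV by 1.53. The mitochondrially encoded COX3, ATP6 and ND4 had few or no UMIs in cluster 13 of ASO animals: COX3 had 311 UMIs in OTV and 2 in ASO animals (ratio 250, counting interval 68.5 to 2071), ATP6 79 and 3 (ratio 42.3, 13.95 to 209) and ND4 61 and 0, where OTV was at least 32.6-fold higher against a floor of 3 counts over the group. Cluster 4 showed the same order, with 2298 COX3 UMIs in OTV and 25 in ASO animals. GOLT1B (−2.87), ACADS (−3.46), the transporter gene SLC7A14 (−2.66), CMTM6 (−1.90) and TMEM164 (−2.49) were lower in OTV. The count fell to 318 without ASO replicate 1, 340 without OTV replicate 3, 379 with the LHX2 term and 383 in the 2 ASO and 3 OTV animals with astrocyte LHX2 under 5 CPM.

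**Figure D5:**
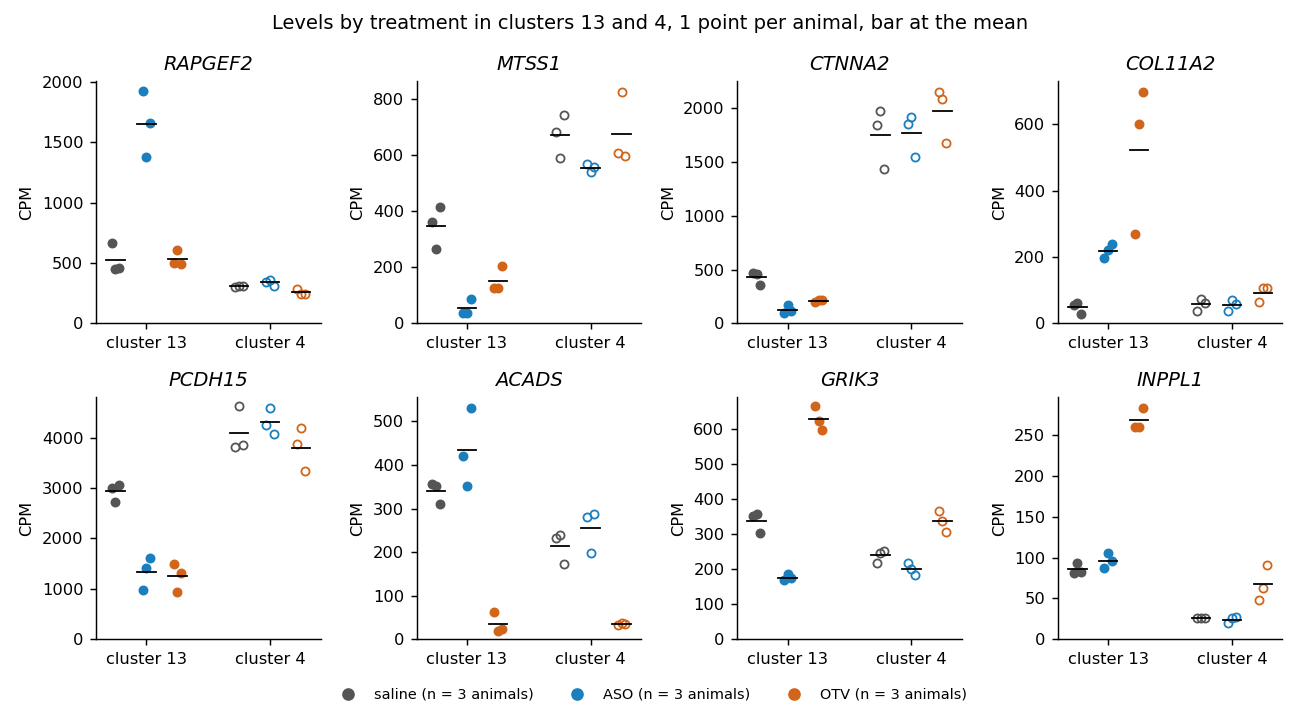
CPM per animal in cluster 13 (filled points) and cluster 4 (open points) is plotted for 8 genes, with a bar at each group's mean. RAPGEF2 in the 3 ASO animals of cluster 13 lies above its other points in both clusters, GRIK3 falls after ASO and rises after OTV, and ACADS is low after OTV in both clusters.

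Treatment changes in cluster 13 also touched the genes that describe its place in the lineage. Of 17 tested OPC identity genes, 3 fell after the ASO, where 2.22% of all tested genes did, and 4 after OTV, where 5.49% did. None rose, also none at an unadjusted p under 0.05 or by DESeq2. DESeq2 called 3 and 6 lower, with NXPH1 and PCDH15 among them in both contrasts and PDGFRA in neither. PCDH15 had 3008, 2729 and 3069 CPM in saline, 972, 1408 and 1607 in ASO animals and 1490, 931 and 1316 after OTV, changes of −1.12 (edgeR adjusted p = 0.0207) and −1.17 (0.00527). NXPH1 changed by −1.32 (0.0126) and −1.56 (0.00145), and PDGFRA by −1.71 in both, from 43.6 ± 6.78 CPM to 13.2 ± 4.18 (0.0460) and 11.2 ± 8.39 (0.0315). Cluster 13 summed to 384546 to 979930 UMIs per ASO animal and 292639 to 499267 per OTV animal, so the treated PDGFRA levels rest on few UMIs. PTPRZ1 changed by −1.04 (0.0305) after OTV and had −0.61 (0.293) after the ASO, a difference between the contrasts that was not called (adjusted p = 0.380). The list medians were −0.55 and −0.68, against −0.01 and −0.02 over all tested genes. Each of these calls other than NXPH1 and PCDH15 after OTV was lost on leaving out 1 or more single animals, with adjusted p up to 0.227. With the LHX2 term all 4 OTV calls were lost, with changes of −0.82 for PCDH15 (edgeR adjusted p = 0.150), −1.24 for NXPH1 (0.0516), −1.71 for PDGFRA (0.172) and −0.74 for PTPRZ1 (0.343). After the ASO that of PDGFRA was lost, with a change of −1.71 (0.0801). The ASO call of PDGFRA was also lost when the nuclei with the highest doublet scores were left out. In cluster 4, PCDH15, NXPH1 and PDGFRA were not called in either contrast and PTPRZ1 was −0.47 after OTV (0.0351). Of 18 members tested there, 2 rose and 3 fell after OTV, where 20.2% of all genes were called. The direct test of a difference between the clusters, with the animal as a block, called NXPH1 and PCDH15 for both treatments. It called neither PDGFRA nor PTPRZ1, so their changes are not shown to be particular to cluster 13.

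Of 13 tested committed precursor genes edgeR called none after the ASO, where 3 were higher at an unadjusted p under 0.05 and DESeq2 called TCF7L2 higher. That unadjusted threshold was passed by 996 of all 5907 tested genes, in either direction. After OTV 4 rose, against 5.94% of all tested genes. ENPP6 rose by 1.04 (edgeR adjusted p = 0.00781), from 738, 753 and 820 CPM to 1424, 1831 and 1281. NEU4, a sialidase gene, rose by 1.65 (0.00477) and TCF7L2 by 0.82 (0.0264), beside MYRF. BCAS1 changed by 0.26 (0.665) and −0.15 (0.719) and GPR17 by −0.57 (0.585) and 0.42 (0.568) after ASO and OTV. Of 14 tested mature genes, the iron carrier TF rose after the ASO (1.03, 0.0488) and MAG after OTV (1.42, 0.0330), 1 of 14 each, where 1.59% and 5.94% of all tested genes rose. The list medians were 0.47 and 0.51. Between OTV and ASO the mature list median was −0.31, and CLDN11 and CTNNA3 were called lower, where 5.28% of all tested genes were. The CTNNA3 call was lost with the LHX2 term (−0.52, edgeR adjusted p = 0.242). In cluster 4 the mature list had medians of 0.54 and 0.81, with 5 of 15 members called higher and 1 lower after OTV (20.2% of all genes tested there were called), and MYRF (1.35, edgeR adjusted p = 0.00415) and NEU4 (1.96, 0.00206) rose there too after OTV. The calls of TCF7L2, TF and MAG were each lost without 3 or more of the animals taken singly. With the LHX2 term the calls of ENPP6 (0.81, edgeR adjusted p = 0.198), NEU4 (1.23, 0.135), TCF7L2 (0.76, 0.234), MAG (1.07, 0.237) and TF (1.00, 0.0756) were lost, while MYRF stayed called.

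Among 14 tested glutamate and GABA receptor genes, 3 fell after the ASO (2.22% of all tested genes fell), GRIK3 and GRIN2B among them. After OTV 1 rose, GRIK3, and 2 fell, GRM7 among them, where 5.94% of all tested genes rose and 5.49% fell. GRIN2B had 111, 88.4 and 112 CPM in saline, 13.3, 5.15 and 46.8 in ASO animals and 16.02, 26.7 and 61.5 after OTV, with changes of −2.32 (edgeR adjusted p = 0.0443) and −1.58 (0.0924). Neither treated group overlapped saline, but the OTV change was not called. The lowest treated levels rest on few UMIs, such as 5.15 CPM in ASO replicate 2 from a sum of 388442 UMIs. Of 5 tested interferon response genes, where 1.59% of all tested genes rose after the ASO and 5.94% after OTV, MX2 rose after both treatments (2.79, edgeR adjusted p = 0.0473, and 3.55, 0.00657), and after OTV STAT2 rose as well (1.07, 0.0333) and 1 gene fell. After the ASO the calls of MX2 and GRIN2B were each lost without any of 6 single animals (edgeR adjusted p up to 0.213 and 0.218). After OTV those of GRM7 and STAT2 were lost without any of 4 (up to 0.104 and 0.164). Among 16 tested matrix genes 1 rose after OTV, BCAN (1.01, 0.00443), which is near the 5.94% of all tested genes. With the LHX2 term the OTV calls of GRIK3 (0.93, edgeR adjusted p = 0.0810), GRM7 (−1.12, 0.225), MX2 (2.97, 0.0975), STAT2 (0.79, 0.322) and BCAN (0.95, 0.0792) were lost, and that of MX2 after the ASO (2.51, 0.124), beside a change of 0.96 for GRIK3 and −1.42 for GRM7 after OTV without the term. No tested gene of the cholesterol, Notch and Wnt or cell cycle lists was called in any contrast by edgeR or DESeq2, with 13, 5 and 2 genes tested. At an unadjusted p under 0.05, 2 Notch and Wnt genes were lower after the ASO and 1 after OTV, and 1 cholesterol gene was lower in OTV against each other group. Of all 5907 tested genes, 996 passed that threshold after the ASO, 1511 after OTV and 1467 between OTV and ASO, in either direction.

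The genes called after treatment were sorted by whether they are 2-fold or more higher in cluster 4 than in oligodendrocytes in all 9 animals, a property of 12.5% of all tested genes. It held for 65.6% of the genes that fell after the ASO (86 of 131), 10.6% of those that rose (10 of 94), 27.5% of those that fell after OTV (89 of 324) and 9.40% of those that rose (33 of 351). The opposite pattern, higher in oligodendrocytes, held for 7.60% of tested genes, 23.4% of those that rose after the ASO and 19.9% of those that rose after OTV. When only nuclei above the median OPC list share over all nuclei were summed, which leaves out OTV replicate 2 with 6 nuclei, 42 genes were called after the ASO and 121 after OTV. At or below the median, without saline replicate 3 and its 4 nuclei, there were 7 and 153. The genes followed here were called from the sum of these same nuclei, so a like direction on each side was largely built in and is no test. Of the 131 genes lowered by the ASO, 129 were tested above the median and 91 at or below it. The ASO-lowered genes had a median change of −0.99 above the median and −1.01 at or below it. The same genes had −1.39 and −1.27 over all nuclei. For genes lowered by OTV the values were −1.34 and −1.52, against −1.50 and −1.40. Genes raised by the ASO had 1.13 above the median and 0.89 at or below it, against 1.13 and 1.19 over all nuclei, and genes raised by OTV had 0.86 and 1.04, against 1.15 and 1.21.

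The direct test of whether a change differed between clusters 13 and 4, with the animal as a block, called 209 of 11324 genes (1.85%) for the ASO, 45 (0.397%) for OTV and 47 (0.415%) between OTV and ASO. Of the 225 genes called after the ASO in cluster 13, 116 were among the 209. RAPGEF2 changed by 1.66 more in cluster 13 than in cluster 4 (SE 0.23, edgeR adjusted p = 0.000192), where it had 310 ± 4.72 CPM in saline and 339 ± 24.7 in ASO animals. MTSS1 (−2.39) and CTNNA2 (−1.68) fell by more in cluster 13, and cluster 4 had 1750 ± 284 and 1770 ± 197 CPM of CTNNA2 in saline and ASO animals. COL11A2 rose by 2.31 more after the ASO and 2.62 more after OTV. For OTV, 29 of the 675 genes called in cluster 13 (4.30%) also passed this test, against 51.6% for the ASO. A gene that did not pass is not shown to have changed alike in both clusters. With oligodendrocytes in place of cluster 4 the ASO count was 112 and the CTNNA2 value 0.24 (adjusted p = 0.980). The ASO count was 111, 118, 71 and 137 without saline replicates 1 and 3 and ASO replicates 1 and 2. The OTV count was 20, 20 and 15 without saline replicates 1 and 3 and OTV replicate 2, and 76 and 72 without ASO replicate 3 and OTV replicate 1. The count between OTV and ASO was 27 without ASO replicate 1 and 16 without OTV replicate 1, and with cluster 4 thinned to the depth of cluster 13 it was 28 and the OTV count 9.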

How the data were processed

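Single-nucleus RNA was measured in tissue labelled thalamus from 9 animals. The authors deposited raw UMI counts per feature and nucleus, with a table that gives each nucleus its animal, cell type, cluster number and a doublet score. Cell Ranger 6.1.2 and Seurat 4 are named in the submitters' processing notes. The notes list a human genome build while the features carry macaque identifiers, and the build behind the counts, the doublet caller and the filters on nuclei were not given in the sources used here. A doublet score deposited by the authors was used only to describe nuclei and to leave out those with the highest values.

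Counts were summed per animal and cluster, which weights nuclei by depth, and no nucleus was removed. Cluster 13 sums of all 9 animals were fitted together in edgeR 4.0.16 (R 4.3.3; TMM scaling, its filter on low counts, robust quasi-likelihood test, Benjamini-Hochberg adjustment over all tested genes, threshold 0.05). The difference between clusters 13 and 4 in treatment change was fitted with the animal as a block. CPM is a count scaled to a library of 1000000 UMIs of that animal and cluster, and log2 levels add a pseudocount of 1. MALAT1 shares were compared with an exact permutation test in scipy 1.17.1. The fits were first tested on simulated counts with known changes and the same spread between animals for every gene. The treatment test recovered 34 of 100 genes changed 2-fold and 94 of 100 changed 4-fold. The test of a difference between clusters recovered 6 and 83 of 100, so it missed most 2-fold differences.

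Genes were named by rule: MALAT1, TFRC, PTPRZ1 and TNR; up to 5 genes per direction and treatment comparison that did not overlap between groups, ranked by adjusted p; the 15 largest upward and 10 largest downward differences from cluster 4 among genes with a mean of 50 CPM or more and the same direction in all animals; up to 3 per direction for the difference between clusters; and members of the 18 lists. Members and lists were chosen with earlier results of these data known. Alternatives were DESeq2 1.42.0 (its size factors and its Wald test), no filter on low counts, only the animals compared, thinned counts, a minimum of 20 nuclei, leaving out high doublet scores or single animals, and, chosen after seeing the data, a term for astrocyte LHX2, only ASO and OTV animals low in it, and nuclei on either side of the median OPC list share. Some genes are not reported here.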

Additional observations from a re-analysis of the deposited data

Results flagged for a closer look

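The change after treatment differed between cluster 13 and cluster 4, by the test of the difference itself (edgeR with the animal as a block), in 209 genes for the ASO, 45 for OTV (both against saline) and 47 when the treated groups were compared. Values below are the change in cluster 13 minus the change in cluster 4 on the log2 scale. For the ASO they were 1.80 for PRICKLE1, a planar polarity gene, 2.31 for COL11A2, 1.66 for RAPGEF2, −2.39 for MTSS1, −1.68 for CTNNA2 and −2.17 for PLPPR1. For OTV they were 2.62 for COL11A2, 3.20 for the creatine kinase gene CKMT2, 2.17 for KLHL29, −2.28 for TMEM164, −1.58 for ASIC2 and −2.00 for the cadherin gene CDH13. ASIC2 fell in cluster 13 from 328 to 148 CPM and rose in cluster 4 from 583 to 829.

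Between OTV and ASO they were 2.01 for the lipid carrier gene APOD, 3.04 for TSHR, 3.50 for MICAL2, −2.88 for DAAM2, −2.30 for the myelin transcription factor gene ST18 and −2.58 for SLC7A14. ST18 overlapped in cluster 13, at 309, 355 and 411 CPM in ASO and 322, 480 and 372 in OTV animals. In cluster 4 it rose from 10.9, 12.2 and 16.4 to 60.4, 65.6 and 72.5. DAAM2 rose there too, from 7.49, 11.6 and 10.8 to 33.5, 24.1 and 61.7. APOD fell there from 282, 263 and 192 to 143, 82.5 and 104. The TSHR call was lost without OTV replicate 1 (edgeR adjusted p = 0.0794), and the MICAL2 call without ASO replicate 1 or OTV replicate 1 (adjusted p up to 0.157). The other 16 of these 18 values kept their call whichever animal was left out. Of the 18, 6 were called under every alternative. With cluster 4 thinned to the depth of cluster 13, 2 lost their call, KLHL29 (edgeR adjusted p = 0.148) and MICAL2 (0.790). With oligodendrocytes in place of cluster 4, 11 did: PRICKLE1, CTNNA2 and PLPPR1 for the ASO, COL11A2, ASIC2 and CDH13 for OTV, and TSHR, MICAL2, DAAM2, ST18 and SLC7A14 between OTV and ASO.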

How the results depend on the processing

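No paired analysis was possible because the replicate numbers follow accession order and link no animals across groups. The small number of nuclei per animal limited which genes could be tested. The 10 summed lists of cell type markers kept their direction under every alternative run, except for endothelial and for mural and fibroblast markers. Endothelial markers turned to −0.56 with nuclei thinned to 1000 UMIs. Mural and fibroblast markers ran from −0.23 to 0.01 without single animals. The pathway lists, such as cholesterol synthesis or Notch and Wnt, were not run under these alternatives. Thinning also moved astrocyte (−3.51), myeloid (−2.81), mural (−1.90) and lymphocyte (−1.22) markers. The ASO count was 474 without the filter, where more genes were tested, 110 with a term for astrocyte LHX2, 42 and 7 in nuclei above and at or below the median OPC list share, and 47 to 268 without single animals. The OTV count was 148 with the LHX2 term, 121 and 153 on the sides of that median and 344 to 837 without single animals. The count between OTV and ASO was 931 without the filter, 355 thinned, 379 with the LHX2 term, 383 in animals low in it, 144 and 342 by side and 318 to 660 without single animals.

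Counts of differences between clusters ranged from 71 to 258, 15 to 76 and 16 to 57 without single animals. They were 112 for the ASO with oligodendrocytes as the reference, and 9 for OTV and 28 between OTV and ASO with cluster 4 thinned. Changes in MALAT1 ranged without single animals from −0.095 to 0.41 (ASO; −0.01 without ASO replicate 3), −0.39 to 0.086 (OTV) and −0.40 to −0.16 (OTV against ASO), its permutation p from 0.182 to 0.743, and the ASO value was −0.34 at or below the median. Direction also turned for PTPRT (0.46) and PTPRZ1 (0.17) after the ASO at or below the median, TCF7L2 (−0.0038) after OTV above it, TFRC (−0.47 to 0.020 without single animals) after the ASO, and CTNNA2 (0.24), PLPPR1 (0.51) and SLC7A14 (0.93) against oligodendrocytes. The MALAT1 difference between clusters for OTV against ASO turned to 0.0066 thinned, 0.012 against oligodendrocytes and ran from −0.13 to 0.067 without single animals. The cause of these shifts was not tested. PTPRZ1 is a member of the OPC list whose share set the median, so its level on each side was constrained by the parting. Of 63 named calls in the 3 comparisons, 40 held whichever animal was left out, and 15 held under every alternative, among them 0 of 19 for the ASO.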

Other observations

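Early response genes summed to 144 ± 44.7 CPM (SD, n = 9 animals) in cluster 13, 188 ± 65.8 in cluster 4 and 283 ± 139 in oligodendrocytes. The sum was lower than in cluster 4 in 8 of 9 animals. Of 12 measured members, 1 was lower in all 9, near the 12.4% of all features with a UMI in either cluster. FOSB, EGR1, EGR3 and CDKN1A had 0 UMIs in cluster 13. A feature with an identifier only, ENSMFAG00000052298, was chosen after its values were seen. It had 1240 CPM in cluster 13, 12.3 in cluster 4 and 1390 in oligodendrocytes.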
